A study of Mus musculus with 12 samples.

Results

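The genes described here encode the constitutive proteasome of the mouse. They are the Psma, Psmb, Psmc and Psmd genes whose symbols end in a number, leaving out Psmb8, Psmb9 and Psmb10, and 36 of the 27978 genes in the deposited table met that rule. The proteasome degrades proteins that carry ubiquitin chains. Its barrel-shaped core has outer rings of alpha subunits, which gate the entrance, and inner rings of beta subunits, of which Psmb5, Psmb6 and Psmb7 cut peptide bonds. A regulatory cap sits on the core: its base holds a ring of ATPases that unfold substrates and pull them in, and its lid removes the ubiquitin chain. In neurons the proteasome also works at synapses, where it takes part in plasticity.

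RNA-seq was performed on hippocampal tissue of mice that had received a fecal microbiota transplant (FMT). The groups are labelled FMT-SP, FMT-DSS and FMT-CON, with 4 libraries each. The series text writes the first of them as FMT-DSS+SP and names SP as the neuropeptide substance P; all 3 groups share the transplant, and the sources used here do not spell out DSS or CON, or give strain, age, sex, dose or time of SP. That every library came from a different animal is not stated, and p-values therefore measure only the spread between these samples, which may be technical.

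Levels are FPKM, the fragments of a transcript divided by its length in kilobases and by the mapped fragments in units of 1000000. This scale corrects for transcript length so that levels of different genes can be compared. The length the authors used is not known, which limits such comparisons. Low FPKM values lay on steps of 1 fragment more often than by chance (34.4% to 36.6% within 0.05 of a whole fragment, against 10%), and from these steps the libraries were estimated to hold 31.5 M to 37.1 M fragments (M, 1000000). At that depth 10 FPKM in a transcript of 1000 bases rests on 315 to 371 fragments. All 8 hippocampal neuron markers were present in the tissue, with a sum between 145 FPKM in FMT-CON 1 and 228 FPKM in FMT-CON 3. Markers of neighbouring tissue varied more: the 5 choroid plexus markers summed to between 18.0 FPKM in FMT-SP 1 and 3824 FPKM in FMT-SP 3, and the 4 pituitary markers to between 2.04 FPKM in FMT-SP 2 and 3581 FPKM in FMT-CON 3. The 3 libraries numbered 4, 1 in each group, stand apart: the 13 mitochondrially encoded genes took 24.0% to 29.0% of their summed FPKM, against 15.9% to 20.3% in the other 9.

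The proteasome genes were among the more abundant and less variable transcripts of this tissue. Of the 36, 34 reached a mean of 1 FPKM over the 12 libraries, the minimum for testing. The median level of these 34 was 57.7 FPKM, against 7.93 FPKM over the 12559 genes tested, and 24 of the 34 were in the top 10% of all tested genes by level. The coefficient of variation over the 12 libraries (CV, the SD as a percentage of the mean) had a median of 7.37% over the 34 genes and 16.3% over all tested genes. The CV of 33 of the 34 was under the median of all genes, and 20 were in the lowest 10%. High-level genes rest on more fragments, and how far level sets this CV was not tested.

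**Figure D1:**
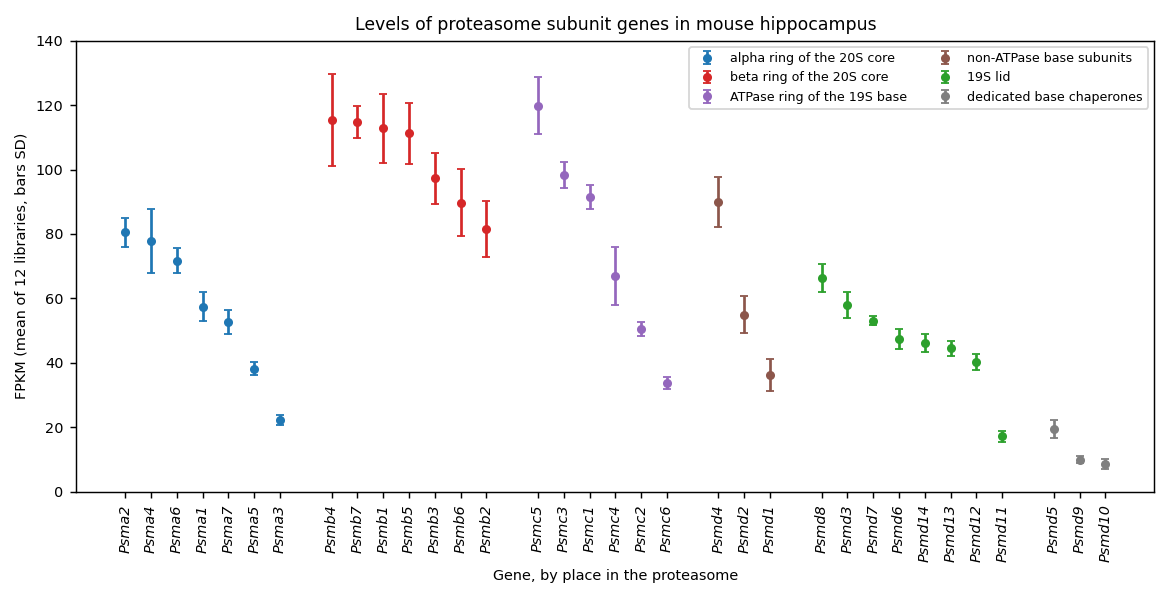
Mean FPKM of the 34 tested proteasome genes over 12 libraries (vertical axis, points; bars are the SD), grouped along the horizontal axis by place in the particle. The 7 beta ring genes lie between 81.7 and 115 FPKM, while the 3 genes of base assembly chaperones lie at or under 19.5 FPKM.

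The beta ring genes had the highest and most even levels. Their median was 111 FPKM, and the highest mean was 1.41 times the lowest, against 3.62 times in the alpha ring, 3.57 times in the ATPase ring and 3.85 times in the lid. Psmb4, a structural beta subunit, had the highest mean of the ring, 115 ± 14.3 FPKM (SD, n = 12), and Psmb2, also structural, the lowest, 81.7 ± 8.69 FPKM (SD, n = 12). Psmb7 averaged 115 FPKM, Psmb1 113 FPKM and Psmb5 111 FPKM, while Psmb3 averaged 97.3 FPKM and Psmb6 89.7 FPKM. The order at the top is not firm: Psmb4 exceeded Psmb7 in only 4 of the 12 libraries and Psmb1 exceeded Psmb5 in 6. Below them is a clear step, since Psmb5 exceeded Psmc3, the next gene in the order, in all 12.

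The 3 catalytic subunits overlapped between groups. Psmb5, which carries the chymotrypsin-like activity, had 111, 102, 109 and 114 FPKM in FMT-SP, 104, 98.6, 110 and 127 FPKM in FMT-DSS, and 110, 101, 122 and 126 FPKM in FMT-CON. Psmb6, which carries the caspase-like activity, had 80.4, 75.5, 84.9 and 98.0 FPKM in FMT-SP, 78.2, 83.7, 93.5 and 103 FPKM in FMT-DSS, and 94.6, 80.5, 102 and 103 FPKM in FMT-CON. Psmb7, which carries the trypsin-like activity, had 116, 108, 117 and 111 FPKM in FMT-SP, 108, 115, 121 and 118 FPKM in FMT-DSS, and 115, 117, 123 and 109 FPKM in FMT-CON. For Psmb5 and Psmb6 the library numbered 4 was the highest in each group. The lead was narrow for Psmb6 in FMT-CON, at 102.502 FPKM against 102.45 FPKM in FMT-CON 3. For Psmb7 the library numbered 4 was the lowest of FMT-CON and in the middle of the other groups. Part of the exonic sequence of Psmb7 (11.8%) lies opposite exons of Nek6, and whether the authors counted reads by strand is not given in the sources used here.

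In the alpha ring the levels spread further. Psma2 had the highest mean at 80.5 ± 4.47 FPKM and Psma3 the lowest of the tested members at 22.2 ± 1.47 FPKM (SD, n = 12 each). Between them lay Psma4 at 77.7 FPKM, Psma6 at 71.7 FPKM, Psma1 at 57.5 FPKM, Psma7 at 52.6 FPKM and Psma5 at 38.2 FPKM. Psma2 exceeded Psma4 in 8 of 12 libraries, so these neighbours do not differ beyond their spread, while Psma3 is set apart at the bottom. Psma3 has 3 near-identical pseudogene copies in the genome, none of them listed in the table, and reads shared with them could be split.

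2 members belong to tissue-restricted proteasomes and were close to absent here. Psma8, the testis form of Psma7, averaged 0.0892 FPKM, which corresponds to 1.5 to 9.8 estimated fragments per library. Psmb11, the thymus form of Psmb5, averaged 0.0404 FPKM, or 1.0 to 18 estimated fragments. Neither reached the minimum for testing, and they entered only the alternative fit without a filter, which called 0 of 36 members in each comparison.

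In the cap, the ATPase ring held both abundant and moderate transcripts. Psmc5 averaged 120 ± 8.87 FPKM, the highest mean of the 36 genes, and Psmc6 33.6 ± 1.86 FPKM (SD, n = 12 each), although both contribute 1 ATPase to the same ring. Psmc5 exceeded Psmb4, the next gene, in 7 of 12 libraries, so first place is not separated from second. Psmc3 at 98.4 FPKM, Psmc1 at 91.4 FPKM, Psmc4 at 66.8 FPKM and Psmc2 at 50.5 FPKM lay between.

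The other cap genes overlapped the range of the ATPases. Among the non-ATPase subunits of the base, Psmd4, a ubiquitin receptor, averaged 89.8 ± 7.71 FPKM, Psmd2, a scaffold that docks ubiquitin shuttles, 54.9 ± 5.77 FPKM, and Psmd1, its partner scaffold, 36.1 ± 5.03 FPKM (SD, n = 12 each). The 8 lid genes had a median of 46.8 FPKM, between Psmd8 at 66.2 FPKM and Psmd11 at 17.2 FPKM. Psmd14, the deubiquitinase that strips the chain, averaged 46.1 FPKM, and Psmd7, with which it forms the active dimer, 53.1 FPKM. Psmd7 had the lowest CV of the 34 genes, 2.55%, with all 12 libraries between 51.0 and 55.8 FPKM. The remaining lid scaffolds averaged 58.0 FPKM for Psmd3, 47.4 FPKM for Psmd6, 44.5 FPKM for Psmd13 and 40.2 FPKM for Psmd12.

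Psmd5, Psmd9 and Psmd10 carry Psmd symbols but encode chaperones that hold parts of the base during assembly and leave before the particle is complete. They averaged 19.5 FPKM for Psmd5, 9.91 FPKM for Psmd9 and 8.58 FPKM for Psmd10. Their CVs were 11.0% for Psmd9, 14.2% for Psmd5 and 17.0% for Psmd10, the last the highest of the 34 genes. Without these 3 and the 2 tissue-restricted genes, the highest subunit mean was 6.97 times the lowest, Psmc5 over Psmd11.

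FMT-DSS was first set against FMT-CON, which asks whether the DSS transplant went with another level of proteasome transcripts. No proteasome gene passed the test in either direction. Of the 34 tested members, 0 passed an adjusted p of 0.05 (limma with Benjamini-Hochberg adjustment over all 12559 genes), against 0% of all tested genes, and 0 had an unadjusted p under 0.05, against 4.06% of all tested genes (510). In 0 of 34 members did the groups not overlap, against 1.75% of all genes. The median log2 change of FPKM + 1 was -0.004 over the members and -0.035 over all tested genes, and 19 of 34 members had the lower mean in FMT-DSS, against 59.7% of all genes. In bulk tissue, fewer cells of a type and less RNA per cell cannot be told apart in any such value.

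The members of smallest p in this comparison did not separate the groups. Psmd10, also known as gankyrin, had 8.03, 6.90, 9.21 and 7.68 FPKM in FMT-DSS and 11.9, 8.86, 9.76 and 7.45 FPKM in FMT-CON. FMT-CON 1 alone lay above all 4 FMT-DSS libraries by more than 2 FPKM, and FMT-CON 4 was under 3 of them. The log2 change of Psmd10 was -0.22 ± 0.14 (SE), with an unadjusted limma p of 0.152 and an adjusted p of 0.966. Psmd8, a lid scaffold, averaged 63.7 ± 3.58 FPKM in FMT-DSS and 68.4 ± 3.36 FPKM in FMT-CON (SD, n = 4 each), and its unadjusted limma p was 0.224. Psmc5 averaged 116 ± 12.1 FPKM in FMT-DSS and 124 ± 8.65 FPKM in FMT-CON (SD, n = 4 each), and its unadjusted limma p was 0.275.

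By place in the particle, all 6 ATPase genes had the lower mean in FMT-DSS and all 3 non-ATPase base genes the higher, with every interval including 0. The base genes had 1 of 3 higher without FMT-CON 4 and 2 of 3 without FMT-DSS 2. The ATPase direction depends on the scaling: 2 of 6 were lower after median-ratio rescaling of the libraries, 5 after quantile normalization and 4 after rescaling without mitochondrially encoded genes, and it also rests on FMT-CON 1, without which 3 of 6 were lower. The alpha ring had 4 of 7 lower, the beta ring 4 of 7 and the lid 4 of 8.

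**Figure D2:**
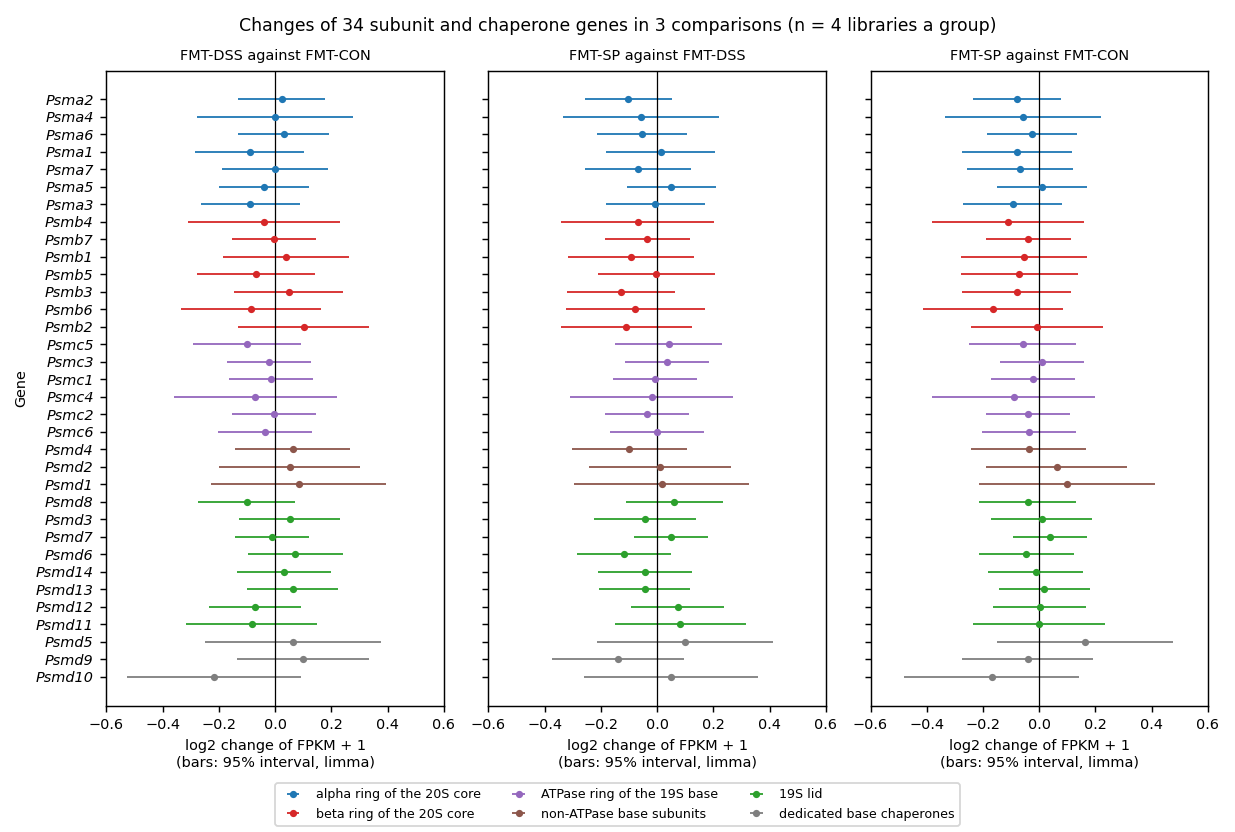
The log2 change of FPKM + 1 (horizontal axis) of the 34 tested genes (rows, coloured by place in the particle) in 3 comparisons, with 95% intervals from limma. Every interval includes 0, and the widest reach -0.53 for Psmd10 in FMT-DSS against FMT-CON and 0.48 for Psmd5 in FMT-SP against FMT-CON.

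The second comparison, FMT-SP against FMT-DSS, asks whether substance P, as named in the label FMT-DSS+SP, went with another level of these transcripts. It shares the FMT-DSS libraries with the first. Again 0 of 34 members passed the adjusted limma threshold, against 0% of all tested genes, and 0 had an unadjusted p under 0.05, against 2.5% of all genes (314). Groups did not overlap for 0 members and 1.27% of all genes. The median log2 change was -0.027 over the members and 0.029 over all genes, and 22 of 34 members had the lower mean in FMT-SP, against 41.1% of all genes.

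Psmd6, a lid scaffold, had the smallest p, with 44.0, 42.9, 45.4 and 49.9 FPKM in FMT-SP and 46.7, 52.2, 46.2 and 53.2 FPKM in FMT-DSS. The groups overlapped through FMT-SP 4, which exceeded 2 of the FMT-DSS libraries. Between libraries of the same number, Psmd6 was lower in FMT-SP in 4 of 4, and with the number as a replicate block its unadjusted limma p was 0.128. The log2 change of Psmd6 was -0.12 ± 0.08 (SE), with an unadjusted limma p of 0.154 and an adjusted p of 0.999. Psmb3, a structural beta subunit, averaged 92.6 ± 7.46 FPKM in FMT-SP and 101 ± 8.90 FPKM in FMT-DSS (SD, n = 4 each), and its unadjusted limma p was 0.174. Psma2 averaged 77.2 ± 5.06 FPKM in FMT-SP and 82.9 ± 3.82 FPKM in FMT-DSS (SD, n = 4 each), and its unadjusted limma p was 0.176. Of the beta ring, 7 of 7 genes had the lower mean in FMT-SP, and 4 to 7 did over the alternatives of processing and left-out libraries.

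In FMT-SP against FMT-CON, which shares libraries with both other comparisons, 0 of 34 members passed the adjusted limma threshold, against 0% of all genes, and 0 had an unadjusted p under 0.05, against 0.358% of all genes (45). Groups did not overlap for 0 members and 0.494% of all genes. The median log2 change was -0.039 over the members and -0.008 over all genes, and 25 of 34 members had the lower mean in FMT-SP, against 53.3% of all genes. Psmb6 had the smallest p with a log2 change of -0.16 ± 0.11 (SE) and an unadjusted limma p of 0.174; its mean was 84.7 ± 9.66 FPKM in FMT-SP and 95 ± 10.4 FPKM in FMT-CON (SD, n = 4 each). Psmd10 averaged 8.29 ± 1.28 FPKM in FMT-SP and 9.49 ± 1.87 FPKM in FMT-CON, and Psma3 averaged 21.7 ± 1.53 FPKM in FMT-SP and 23.2 ± 1.06 FPKM in FMT-CON (SD, n = 4 each). The beta ring had 7 of 7 genes with the lower mean in FMT-SP, and 6 of 7 after each of 3 rescalings.

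The precision of these comparisons can be read from the intervals. All 34 members had a 95% limma interval within a 1.5-fold change of FPKM + 1 in each comparison. The bounds ran from -0.53 (Psmd10) to 0.40 (Psmd1) in FMT-DSS against FMT-CON, from -0.37 (Psmd9) to 0.41 (Psmd5) in FMT-SP against FMT-DSS and from -0.48 (Psmd10) to 0.48 (Psmd5) in FMT-SP against FMT-CON, on the log2 scale. Summed over the 14 core genes, the level was 1088 ± 63.5 FPKM in FMT-SP, 1139 ± 105 FPKM in FMT-DSS and 1143 ± 84.3 FPKM in FMT-CON (SD, n = 4 each), with differences smaller than the SD. The core sum was 1.08 ± 0.0454 times the sum of the cap subunits in FMT-SP, 1.12 ± 0.0746 times in FMT-DSS and 1.12 ± 0.0722 times in FMT-CON.

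Libraries also differed within the groups. In the 3 libraries numbered 4, the beta ring genes, Psmc4 and Psma4 were mostly higher and the large scaffolds Psmd1 and Psmd2 and the chaperone Psmd5 lower than in libraries 1 to 3 of the same group. Library 4 was the highest of its group in all 3 groups for 8 of 34 members (Psmc4, Psmb4, Psmb6, Psmd9, Psmb2, Psmd4, Psmb5 and Psmd13), against 13.9% of all tested genes. It was the lowest in all 3 groups for 4 of 34 (Psmc2, Psmd2, Psmd1 and Psmd5), against 25.6% of all genes. After rescaling without mitochondrially encoded genes, 8 members were still highest, with Psma4 in place of Psmb5, against 1729 of the 12559 tested genes. Again 4 members were lowest, with Psmc6 in place of Psmc2, against 3329 of the 12559 genes. These libraries were singled out after their values were seen, so the difference is a description with no test.

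**Figure D3:**
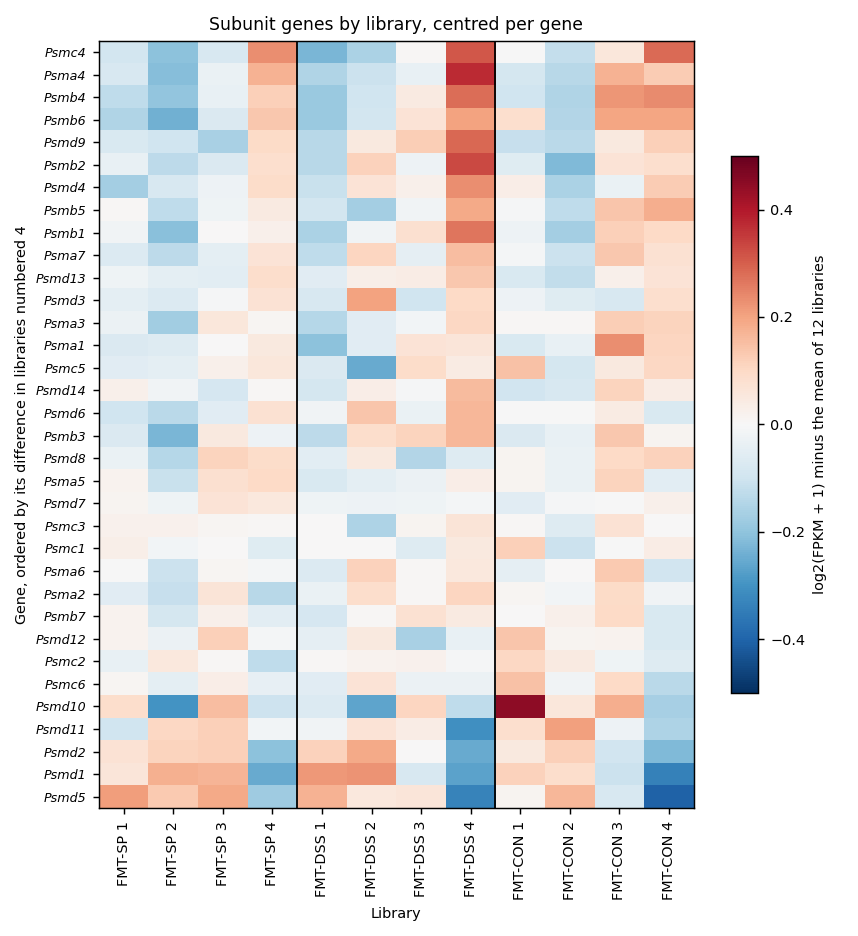
Log2(FPKM + 1) of the 34 tested genes (rows) in 12 libraries (columns), minus the mean of the gene over the libraries (colour, red higher and blue lower). Rows are ordered by how far the libraries numbered 4 differ from the others, from Psmc4 at the top to Psmd5 at the bottom, and the fourth column of each group shows this order.

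Psmc4, an ATPase chosen for this pattern after its values were seen, had 62.1, 57.3, 62.6 and 78.1 FPKM in FMT-SP, 56.5, 59.3, 66.6 and 82.5 FPKM in FMT-DSS, and 66.2, 60.9, 68.9 and 80.8 FPKM in FMT-CON. Psmd1, chosen likewise, had 37.3, 40.6, 40.4 and 29.9 FPKM in FMT-SP, 41.7, 42.0, 33.8 and 29.6 FPKM in FMT-DSS, and 38.9, 38.1, 33.1 and 28.1 FPKM in FMT-CON. Psmd5 had 22.5, 21.3, 22.2 and 17.0 FPKM in FMT-SP, 22.0, 20.1, 20.2 and 15.1 FPKM in FMT-DSS, and 19.6, 21.9, 18.3 and 14.4 FPKM in FMT-CON. The last value is the highest of each group for Psmc4 and the lowest for Psmd1 and Psmd5, although for Psmd1 the FMT-DSS 3 and FMT-CON 3 values were also under those of libraries 1 and 2.

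On the log2 scale, library 4 minus the mean of libraries 1 to 3, averaged over the 3 groups, was 0.37 for Psmc4, 0.30 for Psma4 and 0.28 for Psmb4. It was -0.21 for Psmd11, -0.30 for Psmd2, -0.38 for Psmd1 and -0.41 for Psmd5. The sign held for all 7 genes as deposited and under median-ratio rescaling, quantile normalization and rescaling without mitochondrially encoded genes, with ranges of 0.34 to 0.44 for Psmc4 and -0.43 to -0.34 for Psmd5. Over all 34 members the median was 0.07, against -0.06 over all tested genes. It was 0.14 against -0.001 after median-ratio rescaling, 0.05 against 0.003 after quantile normalization and 0.05 against -0.08 after rescaling without mitochondrially encoded genes.

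**Figure D4:**
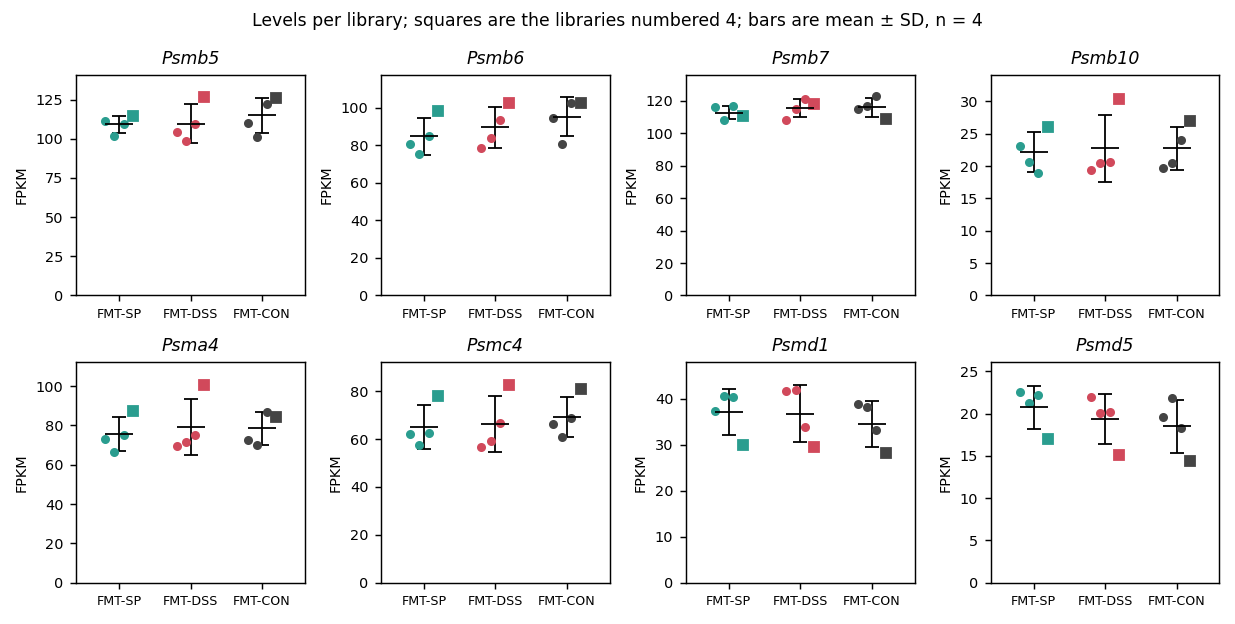
FPKM (vertical axis) of 8 genes in each library of FMT-SP, FMT-DSS and FMT-CON, with squares for the libraries numbered 4 and bars for the mean ± SD (n = 4). The squares are the highest points of each group for Psmb5, Psmb6, Psmb10 and Psmc4 and the lowest for Psmd1 and Psmd5, while for Psmb7 they are not at the same end.

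Transcript length moved with this pattern. Of the 25 members with a principal transcript under 2000 bases, 20 had a difference above 0, whereas 3 of the 9 members of 2000 bases or more did. Over all tested genes with a length, the shares above 0 were 69.6% and 32.4%. Spearman's rho between length and the difference was -0.52 over the 34 members and -0.45 over 12100 genes, which share the same 12 libraries. The mitochondrially encoded share was highest in the same libraries, and the astrocyte markers summed to 128 to 155 FPKM there, against 192 to 223 FPKM in the other 9. Markers of neurons in general summed to 880 to 950 FPKM there, against 933 to 1133 FPKM. Microglia markers summed to 21.3 to 52.8 FPKM, against 28.5 to 63.9 FPKM. The ranges of the hippocampal neuron, oligodendrocyte and endothelium markers also overlapped. The part of length, mitochondrial share and cell makeup in the difference was not tested.

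**Figure D5:**
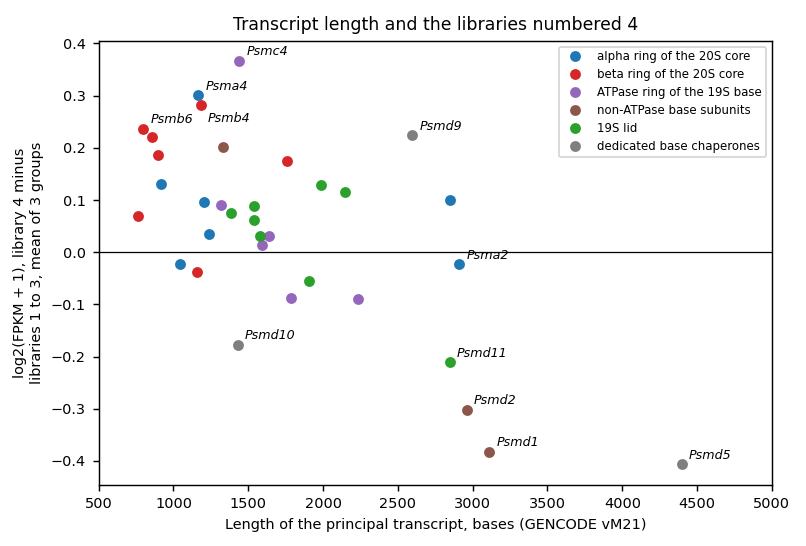
Difference in log2(FPKM + 1) between library 4 and libraries 1 to 3, as a mean over 3 groups (vertical axis), against the length of the principal transcript in bases (horizontal axis) for 34 genes, coloured by place in the particle. Short transcripts such as Psma4 and Psmb4 lie above 0, and Psmd11, Psmd2, Psmd1 and Psmd5 lie below it.

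Counted over all 12 libraries, the highest and lowest values of the members gathered in a few of them. FMT-DSS 4 was the highest of the 12 libraries for 15 of 34 members, against 15.2% of all tested genes, and FMT-SP 2 the lowest for 12, against 5.36% of all genes. FMT-CON 3 and FMT-CON 1 were the highest for 6 members each, against 7.62% of all genes for FMT-CON 3 and 17.1% for FMT-CON 1, where the members' count is near that share. FMT-SP 2 also had the highest sum of the 5 erythrocyte markers, 1337 FPKM, and FMT-CON 3 the highest sum of pituitary markers. The part of these markers in the counts was not tested.

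Promoters are shown for 2 catalytic genes with a difference above 0 in the libraries numbered 4 and for 2 cap genes with a difference below 0, chosen after their values were seen, with the motif found in each. The cores searched, on both strands from 250 bases before to 50 after the start, were TGACNNNGC, the antioxidant response element bound by Nfe2l1, the factor known to drive proteasome genes when the proteasome is impaired; CCGGAAG, which ETS factors bind; and CCAAT. Sequences are from RefSeq (GRCm38.p6), 5′ to 3′ in the direction of the gene, and give the 250 bases before the annotated start with the motif in capitals (for Psmd2 and Psmd11 the reverse complement of CCGGAAG was found). Psmb5 lies at chr14:54617996-54618245 on the minus strand and its motif begins 47 bases before the start, and Psmb6 lies at chr11:70525107-70525356 on the plus strand with its motif 9 bases before the start. Psmd2 lies at chr16:20651402-20651651 on the plus strand with its motif 26 bases before the start, and Psmd11 lies at chr11:80428365-80428614 on the plus strand with its motif 11 bases before the start.
Psmb5: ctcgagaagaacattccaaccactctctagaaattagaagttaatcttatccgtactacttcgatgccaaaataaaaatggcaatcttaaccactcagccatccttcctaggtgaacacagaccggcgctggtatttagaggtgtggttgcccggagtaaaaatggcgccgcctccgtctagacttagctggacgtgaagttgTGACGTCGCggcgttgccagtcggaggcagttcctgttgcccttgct
Psmb6: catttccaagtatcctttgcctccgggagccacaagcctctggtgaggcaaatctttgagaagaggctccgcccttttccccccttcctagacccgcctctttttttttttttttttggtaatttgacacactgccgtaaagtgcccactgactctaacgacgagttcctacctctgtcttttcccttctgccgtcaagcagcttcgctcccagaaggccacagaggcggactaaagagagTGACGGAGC
Psmd2: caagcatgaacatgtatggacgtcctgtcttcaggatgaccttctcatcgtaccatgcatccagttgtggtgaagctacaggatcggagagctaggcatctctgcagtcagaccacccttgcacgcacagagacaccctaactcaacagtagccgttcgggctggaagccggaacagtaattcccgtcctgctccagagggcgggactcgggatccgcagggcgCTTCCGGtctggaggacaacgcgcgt
Psmd11: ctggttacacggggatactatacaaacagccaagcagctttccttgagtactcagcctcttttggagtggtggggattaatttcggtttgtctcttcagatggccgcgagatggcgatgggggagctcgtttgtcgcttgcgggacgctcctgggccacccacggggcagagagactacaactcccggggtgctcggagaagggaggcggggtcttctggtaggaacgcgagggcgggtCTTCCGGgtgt

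Of the 36 genes, 29 were matched in the promoter table. TGACNNNGC was found in 5 of them (17.2%), Psmb5, Psmb6, Psmc6, Psmd12 and Psmd9, against 16.8% of the promoters of tested genes. CCAAT was found in 12 (41.4%), against 42.8% of tested genes. CCGGAAG was found in 10 (34.5%), against 19.3% of tested genes, and these were unevenly placed: 1 of 12 ring genes and 9 of 17 cap and chaperone genes held it. Each of the 4 sequences shown held 1 match to these cores, so no overlap was possible in them. Other carriers of each motif had either sign in the libraries numbered 4. CCGGAAG was also found in Psmd4 (0.20), Psmd13 (0.13), Psmd6 (0.07) and Psmc1 (0.01), above 0 on the log2 scale. It was found as well in Psmc6 (-0.09), Psmc2 (-0.09), Psmd12 (-0.05) and Psma6 (-0.02), below 0 like Psmd2 and Psmd11. TGACNNNGC was also found in Psmd9 (0.22), above 0 like Psmb5 and Psmb6, and in Psmc6 (-0.09) and Psmd12 (-0.05), below it. A match describes the letters in the window and no binding was measured.

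Among the genes around the proteasome, limma called 0 in each of 5 lists and 3 comparisons. The immunoproteasome subunits replace the catalytic ones when interferon acts, and they were scarce here apart from Psmb10. Psmb8 made up 0.905% to 2.53% of the sum with its counterpart Psmb5 over the 12 libraries, and Psmb9 0.451% to 1.26% of the sum with Psmb6; Psmb9, at a mean of 0.689 FPKM, was below the minimum for testing. Psmb10 made up 13.9% to 20.5% of the sum with Psmb7, with 19.1% to 20.5% in the libraries numbered 4 and 13.9% to 16.6% in the other 9. By group the share was 16.4% ± 2.11 in FMT-SP, 16.3% ± 2.77 in FMT-DSS and 16.4% ± 2.39 in FMT-CON (SD, n = 4 each). Of the 7 tested immunoproteasome and activator genes, 0 had an unadjusted p under 0.05 in any comparison; Psmf1, an inhibitor of the core, had the smallest p in FMT-DSS against FMT-CON, with 8.33 ± 1.51 FPKM in FMT-DSS and 7.57 ± 0.568 FPKM in FMT-CON (SD, n = 4 each).

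Of the 5 assembly chaperones of the core, Pomp, which matures the beta ring, averaged 120 FPKM, near the beta genes it serves. Psmg2 was the single gene of that list with an unadjusted p under 0.05: it had 9.88, 8.0, 10.4 and 10.9 FPKM in FMT-DSS and 12.9, 10.1, 12 and 12.7 FPKM in FMT-CON. FMT-CON 2 lay within the FMT-DSS range. Its log2 change was -0.26 ± 0.12 (SE), with an unadjusted limma p of 0.0462 and an adjusted p of 0.966. In the other 2 comparisons 0 of 5 had an unadjusted p under 0.05.

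Of the cap partners in the table, limma called 0 of 12 in each comparison, and in FMT-SP against FMT-DSS and in FMT-SP against FMT-CON 0 of the 12 had an unadjusted p under 0.05. Uchl5, a deubiquitinase that binds the cap, averaged 16.1 ± 1.74 FPKM in FMT-DSS and 18.7 ± 1.77 FPKM in FMT-CON (SD, n = 4 each), and the groups overlapped. Its log2 change was -0.20 ± 0.10 (SE), with an unadjusted limma p of 0.0556 and an adjusted p of 0.966. Adrm1, a ubiquitin receptor of the cap, averaged 42.2 ± 5.07 FPKM in FMT-SP and 48.4 ± 8.16 FPKM in FMT-DSS (SD, n = 4 each), with an unadjusted limma p of 0.150.

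Of 7 genes that control proteasome transcription, Nfe2l1, named for its role after its values were seen, averaged 43.8 FPKM, and its level in the libraries numbered 4 was 37.1 FPKM in FMT-SP, 27.2 FPKM in FMT-DSS and 33.9 FPKM in FMT-CON, the lowest of each group. Maff, a small Maf protein that pairs with it, had 0.443, 4.21, 0.634 and 5.93 FPKM in FMT-DSS, against 0.369, 0.264, 0.544 and 0.474 FPKM in FMT-CON. Only FMT-DSS 2 and FMT-DSS 4 lay above every FMT-CON library by more than 1 FPKM, and the groups overlapped. The log2 change of Maff was 1.11 ± 0.42 (SE), with an unadjusted limma p of 0.0206 and an adjusted p of 0.966. Of the 7 genes, 2 had an unadjusted limma p under 0.05 in FMT-DSS against FMT-CON, both higher in FMT-DSS. In FMT-SP against FMT-DSS Maff changed by -0.98 and Mafk, of the same family, by -0.38 on the log2 scale, with unadjusted limma p-values of 0.0359 and 0.0435 and an adjusted p of 0.999 for both. Mafk had 1.18, 2.85, 1.33 and 2.34 FPKM in FMT-DSS and 0.989 to 1.34 FPKM in FMT-SP. Only FMT-DSS 2 and FMT-DSS 4 lay above the FMT-SP range of Mafk. Of the 14 ubiquitin genes and enzymes, 0 had an unadjusted p under 0.05 in any comparison; Ubb, a polyubiquitin gene named for its level, averaged 937 FPKM and Uchl1, an abundant neuronal deubiquitinase, 509 FPKM.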

How the data were processed

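Total RNA of mouse hippocampal tissue was sequenced in 12 libraries, grouped and numbered by their titles. The authors deposited 1 table of FPKM values for 27978 genes; per the submitters' processing notes HISAT2 2.0 and the build mm8 were used, in roles not given. Read counter, annotation, filters and strand were not stated in what was used here. Members and lists were chosen with earlier results of these data known.

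Values were tested as log2(FPKM + 1) with limma 3.58.1 in R 4.3.3 (empirical Bayes with trend, all 12 libraries in 1 fit, 9 residual degrees of freedom) on the 12559 genes that averaged 1 FPKM or more. P-values are two-sided, adjusted over all tested genes by the Benjamini-Hochberg method at 0.05. Fold changes on this scale understate those of low genes. The fitting code was tested on simulated data. Depth was estimated from 1-fragment steps: 34.4% to 36.6% of low values in genes with a single transcript fell within 0.05 of whole fragments (10% by chance), too few to recover counts. Positions and lengths come from GENCODE vM21 (GRCm38), promoters from RefSeq; no coordinates were converted, and the length the authors used is not known. The principal transcript was the best-ranked in the annotation, protein-coding where there was one, and the longest where ranks tied. Pseudogene copies were found with blastn 2.17.0 (95% identity over 300 bases): 14 copies of 8 members, 0 of them listed in the table. Besides Psmb7, exons of Psmd13 (10.1%), Psmc3 (8.25%), Psma4 (4.81%) and Psmd1 (3.47%) lie opposite another listed gene.

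Named for per-library values were Psmb5, Psmb6 and Psmb7, the highest and lowest gene by place in the particle, and in each comparison the 3 members of smallest p and the 2 genes of smallest p in each other list; others are said to be chosen after their values were seen. Some genes that this rule selects are not reported here. Mitochondrially encoded genes, planned by mt- symbols, are listed as ND1, COX1 and the like and were matched by chromosome. Same-numbered libraries correlated at 0.356, 0.354, 0.108 and 0.694 between FMT-SP and FMT-DSS. FMT-SP 3 correlated more with FMT-DSS 1 (0.196) and FMT-DSS 2 (0.168) than with FMT-DSS 3 (0.108). The largest value is between the libraries numbered 4, which stand apart. In FMT-SP against FMT-CON the pairs numbered 1 to 4 were at -0.329, 0.528, -0.451 and 0.841. In FMT-DSS against FMT-CON the pairs numbered 1 to 4 were at 0.18, 0.24, 0.007 and 0.723. These values do not settle whether the numbers mark pairs. The reported fit has no replicate block, and the blocked fit changed no call. The alternatives were other pseudocounts, filters and scalings, array weights, only the groups compared, a replicate block and left-out libraries.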

Additional observations from a re-analysis of the deposited data

Results flagged for a closer look

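In 108 groups of 4 libraries, 1 for each gene examined and group, 2 single libraries lay far from the other 3 by Dixon's 95% critical value; chance gives about 1 in 20 groups, here 5.4. Psma6, an alpha ring subunit, had 66.4 FPKM in FMT-SP 2, against 71.2 to 72.2 FPKM in the other FMT-SP libraries. Psmd2 had 47.2 FPKM in FMT-SP 4, against 57.4 to 59.3 FPKM in the others.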

How the results depend on the processing

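Each comparison was recomputed under 24 alternatives, 12 of which left out 1 library, and limma called 0 members and 0 genes in every one. The median log2 change of the members ran from -0.050 to 0.044 in FMT-DSS against FMT-CON, changing sign there, from -0.056 to 0.008 in FMT-SP against FMT-DSS and from -0.078 to -0.012 in FMT-SP against FMT-CON. With 1 library left out it ran from -0.022 to 0.020, from -0.056 to -0.007 and from -0.065 to -0.018 in the same order. Without the 3 libraries numbered 4 it was -0.027, -0.004 and -0.048. With a replicate block, 0 members were called, and 1274, 885 and 310 genes had an unadjusted p under 0.05, against 510, 314 and 45 without it. With 1 library left out these ran from 243 (without FMT-DSS 2) to 1198 (FMT-DSS 3), from 149 (FMT-DSS 4) to 798 (FMT-DSS 1) and from 14 (FMT-SP 1) to 216 (FMT-SP 3). Array weights gave 1146 such genes in FMT-SP against FMT-CON, 4 of them members (Psma1, Psmb4, Psmb6 and Psmd5), with an adjusted p of 0.535 each; the cause was not tested. The block gave Psmb6 and Psmd5 there, and Psmd10 in FMT-DSS against FMT-CON had an unadjusted p of 0.044 without FMT-CON 4. The 2 lowest members rest on too few fragments to show a difference.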
